A study of Drosophila melanogaster with 50 samples.

Results

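Rhino is a heterochromatin protein 1 paralog of the Drosophila germline. It binds histone H3 methylated on lysine 9 and marks the loci, called piRNA clusters, from which long precursors of piRNAs are transcribed on both strands. Kdm3 is an H3K9 demethylase. The regions described here are the Rhino peaks on the X chromosome of ovaries with a germline knockdown (GLKD) of Kdm3 that overlapped no Rhino peak of control sisters and at least 1 bp of an H3K9me2 or H3K9me3 peak of the same Kdm3 GLKD ovaries. They are called new methylated Rhino peaks below. There were 576 of them among the 1882 Rhino peaks of Kdm3 GLKD ovaries on all arms. They were chosen by these peak calls, so their number and their Kdm3 GLKD peak values are a description with no test.

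The peaks came from chromatin immunoprecipitation and sequencing (ChIP-seq) of whole ovaries, with 2 Rhino libraries, 3 H3K9me2 libraries, 3 H3K9me3 libraries and 2 input libraries per genotype. The study lists 1 of these inputs for both histone marks and the other for Rhino, so they are not replicates of each other. In Kdm3 GLKD females a small hairpin RNA against Kdm3 is expressed in the germline. The driver mainly used in the study is nosGAL4. The controls were sisters labelled wild type for Kdm3. The labels describe the ovaries as germinal and somatic tissue, and the follicle cells around the germline are not targeted by the knockdown. Genes under the peaks were followed in 5 gene tables, which cover RNA and 23- to 29-nt RNAs of ovaries (3 libraries of Kdm3 GLKD and 3 of control sisters), RNA of 3- to 5-hour embryos, and 23- to 29-nt RNAs of 0- to 2-hour and of 3- to 5-hour embryos. The embryos were laid by Kdm3 GLKD females or by females with a germline knockdown of w, with 2 libraries per group and table. Each antibody and genotype had 1 peak list, and each gene table gave 1 base mean per gene, the level that the authors averaged across the libraries of both its groups. No library had a value of its own in these files, so the values below have no replicate error.

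A Rhino peak is described by its fold enrichment over input, by the -log10 q of the peak caller and by its summit, the position of its highest signal. The strongest peaks of several X domains are shown by the 150 bp of X around their summits, since the sequence at the summits differed from the rest of X in composition (below). Sequences are the + strand of the RefSeq Release 6 genome, and capitals mark the words GAGG and GGGG or, on the other strand, CCTC and CCCC.
bi and lncRNA:CR32773, chrX:4440201-4440350: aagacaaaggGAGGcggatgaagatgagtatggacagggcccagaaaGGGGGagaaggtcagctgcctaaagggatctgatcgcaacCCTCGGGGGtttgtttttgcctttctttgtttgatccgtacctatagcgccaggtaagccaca
lncRNA:CR32773, chrX:4405735-4405884: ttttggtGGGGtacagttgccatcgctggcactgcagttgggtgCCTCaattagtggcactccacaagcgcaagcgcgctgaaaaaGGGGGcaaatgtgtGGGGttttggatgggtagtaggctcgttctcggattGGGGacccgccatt
Mur2B, chrX:1535390-1535539: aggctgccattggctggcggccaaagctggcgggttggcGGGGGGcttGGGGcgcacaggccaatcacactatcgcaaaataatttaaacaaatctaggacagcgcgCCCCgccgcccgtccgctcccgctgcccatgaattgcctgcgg
disco-r, chrX:16119261-16119410: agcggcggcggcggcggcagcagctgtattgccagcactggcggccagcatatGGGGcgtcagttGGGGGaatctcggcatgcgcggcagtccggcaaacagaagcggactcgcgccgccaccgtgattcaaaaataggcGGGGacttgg
Mct1, chrX:2189554-2189703: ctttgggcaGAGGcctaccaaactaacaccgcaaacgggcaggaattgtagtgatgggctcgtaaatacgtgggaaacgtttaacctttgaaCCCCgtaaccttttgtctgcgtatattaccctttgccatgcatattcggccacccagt
Lim1, chrX:8772721-8772870: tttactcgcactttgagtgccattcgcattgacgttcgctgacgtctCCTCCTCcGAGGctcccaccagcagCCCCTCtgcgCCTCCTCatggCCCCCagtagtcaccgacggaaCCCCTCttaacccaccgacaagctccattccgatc
disco, chrX:16211948-16212097: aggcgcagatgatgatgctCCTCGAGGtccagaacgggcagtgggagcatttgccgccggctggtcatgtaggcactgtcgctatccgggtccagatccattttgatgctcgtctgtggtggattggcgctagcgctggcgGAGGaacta
The Lim1 window held 7 GAGG and 4 GGGG words at a GC content of 60%, and the disco window held 3 GAGG and no GGGG at 59.3%. The disco-r window had the reverse pattern, with 4 GGGG and no GAGG at 66%. The window with the lowest GC content among those shown, at the start of Mct1, had 48.7% and 1 word of each kind.

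The study asked where Rhino binds once Kdm3 is reduced. On X, 715 Rhino peaks were called in Kdm3 GLKD ovaries and 86 in control sisters. Of the 715 peaks, 648 were new, and 576 of these were methylated, which is 80.6% of the X peaks. The same rule took 69.1% of the Rhino peaks on all arms. The new methylated peaks covered 389335 bp of X. X held 24.5 of them per Mb, the long autosome arms held between 4.83 (3R) and 9.21 (2R) per Mb, and the small chromosome 4 held 38.6 per Mb.

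New methylated Rhino peaks were narrow and clustered. Their width ranged from 200 to 6128 bp with a median of 408 bp. Their fold enrichment ranged from 1.19 to 4.37 with a median of 1.80, and 177 of them (30.7%) reached 2-fold. The -log10 q ranged from 1.32 to 80.4 with a median of 7.03. The 724 new methylated peaks of the autosomes had a median fold enrichment of 1.83. When peaks up to 5 kb apart were joined, the 576 peaks formed 145 domains. Of these, 70 domains held a single peak, 45 held 2 to 4 peaks, and 30 held 5 or more and together carried 388 peaks. The 10 domains with the most sequence in peaks carried 56.2% of the peak length, and the first 3 carried 31%.

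**Figure D1:**
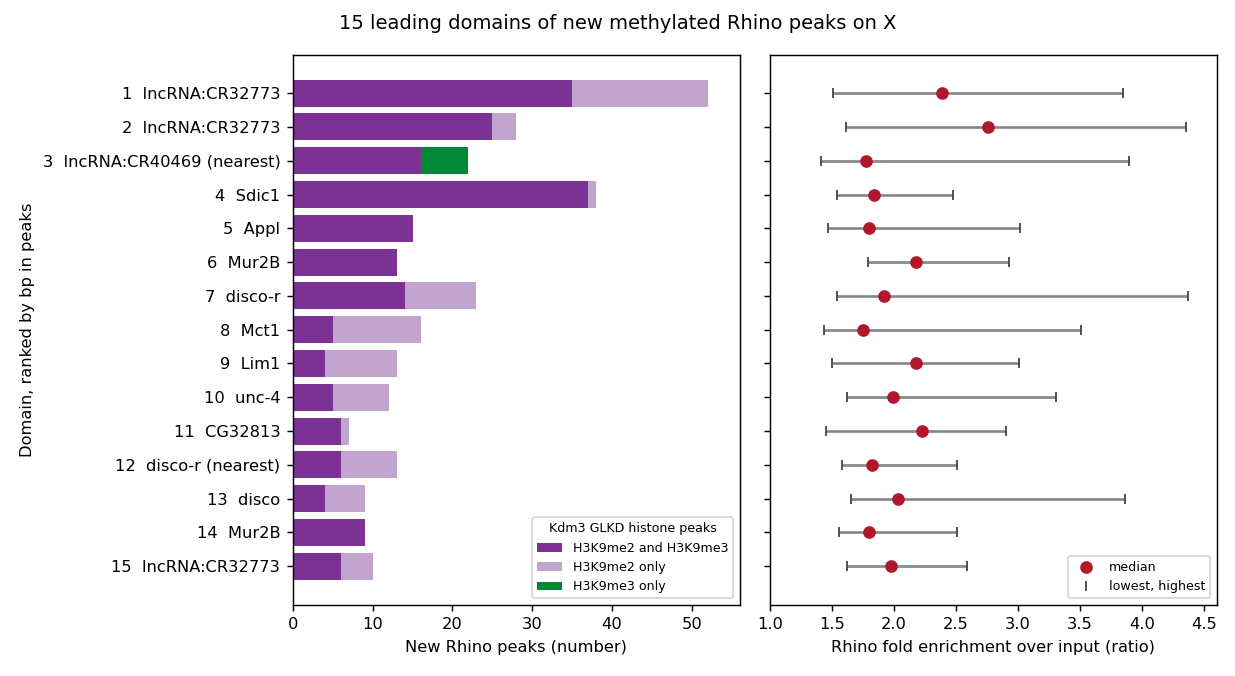
Leading domains of new methylated Rhino peaks on X. For the 15 domains with the most sequence in peaks, named by gene, the bars give the number of peaks by the Kdm3 GLKD marks they overlapped, and the other panel gives the median (point) and the lowest and highest (ticks) Rhino fold enrichment over input. The leading domain, at bi and lncRNA:CR32773, held 52 peaks, and the highest single peak, of 4.37-fold, lay in the disco-r domain.

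The leading domain lay at chrX:4428346-4507044, inside the long noncoding RNA gene lncRNA:CR32773 and across the T-box transcription factor gene bi, which is known for its role in the optic lobe and the wing. Its 52 peaks covered 57677 bp, or 73.3% of a span of 78699 bp. Their fold enrichment ranged from 1.51 to 3.85 with a median of 2.38. The neighbouring domain, chrX:4371270-4422234, held 28 peaks with a median of 2.76 and a maximum of 4.35. The control Rhino peak nearest to either was 377971 bp away. In the knockdown, 35 of the 52 peaks of the leading domain overlapped both H3K9me2 and H3K9me3 and 17 overlapped H3K9me2 only. In control sisters 11 of the 52 overlapped either mark. Across the bi gene itself, 45 peaks covered 48832 bp, which is 67.1% of its span. The 2 genes overlap on opposite strands, so that their reads cannot be told apart by position alone.

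The disco-related gene disco-r and the zinc-finger gene disco, which is needed for the wiring of the larval visual system, lie close together and formed 3 of the leading domains. The domain at chrX:16108260-16144160 held 23 peaks, 15 of which lay on disco-r, and its strongest peak, in an exon of disco-r at chrX:16119015-16121059, had the highest fold enrichment of all 576, at 4.37 with a -log10 q of 80.4. The second domain, at chrX:16151308-16167836, held 13 peaks and no gene, at 2330 bp from disco-r. The third, at chrX:16204750-16215842, held 9 peaks with a maximum of 3.86-fold, and 4 of them covered 50.7% of disco. In the first of these domains 5 of the 23 peaks overlapped a control H3K9me2 or H3K9me3 peak, in the second 1 of 13 and in the third none, and none of the peaks on disco or disco-r themselves did.

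Other leading domains lay over 1 or several genes. The mucin-related gene Mur2B carried 30 peaks over 24727 bp, all 30 on both marks and 7 on a control mark. Of these 30, 13 also lay on the gene br, whose span lies inside that of Mur2B. The LIM-homeobox gene Lim1 carried 24 peaks over 14654 bp, all with their summits in introns, of up to 3.01-fold. Of these 24, 9 overlapped both marks and 3 overlapped a control mark. Appl, the fly gene of the amyloid precursor protein family, carried 17 peaks over 14322 bp. All 17 overlapped both marks, and 8 overlapped a control mark. The homeobox gene unc-4 carried 6 peaks over 48.4% of its span, and the domain around it held 12. The domain at Mct1, a gene of the monocarboxylate transporter family, and SmydA-8 held 16 peaks, of which 11 overlapped H3K9me2 only. Among the 10 leading domains, the share of peaks on both marks ranged from all of them in the Mur2B and Appl domains to 4 of 13 in the leading Lim1 domain.

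Some domains consisted of sequence that the genome holds more than once. A summit window of 300 bp was called repeated when at least 50% of its 31-bp words occur elsewhere in the genome. By this measure 174 peaks (30.2%) were repeated, against 10.9% of all windows of X and 40.2% of the new methylated peaks of autosomes. Reads of such windows cannot be assigned to 1 place with certainty. The third domain by sequence in peaks, chrX:649-52367, is the distal tip of the assembled chromosome and held no gene. Its 22 peaks were all repeated, all overlapped a control mark, and 6 of them overlapped H3K9me3 only, of 11 such peaks on X. The fourth, chrX:20174542-20230183, held 38 repeated peaks over 7 Sdic genes, the tandem copies that encode a sperm dynein intermediate chain, and over the end of sw, the cytoplasmic dynein intermediate chain gene from which they derive. There, 37 of 38 peaks overlapped both marks and 4 overlapped a control mark.

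The peaks were spread unevenly along X. The following segments were drawn after the positions were seen. In the first 0.2 Mb, 47 of 47 peaks overlapped a control H3K9me2 or H3K9me3 peak and 43 were repeated. At the proximal end, from 22 to 24 Mb, 83 of 83 overlapped a control mark and 76 were repeated. That end also held 71 of the 86 control Rhino peaks of X. From 20 to 21 Mb, where the Sdic genes lie, 5 of 42 peaks overlapped a control mark and 39 were repeated. In the rest of X there were 404 peaks in 95 domains, of which 88 (21.8%) overlapped a control mark, 16 were repeated, and 12 overlapped an annotated transposable element. These 404 peaks had a median fold enrichment of 1.90, against 1.53 at the proximal end. Between the ends, the stretches of 1 Mb with the most peaks were 4–5 Mb, around bi, with 95 peaks, 16–17 Mb, around disco, with 55, and 8–9 Mb, around Lim1, with 48. No peak lay in 11–13 Mb or 14–15 Mb.

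The control histone peaks were not themselves used to choose the regions and show which sites had a called mark in control sisters. The rule is still tied to them, since it left out peaks on control Rhino peaks and required a Kdm3 GLKD mark. Of the 576 peaks, 223 (38.7%, exact binomial 95% interval 34.7 to 42.8%, which covers counting only and treats neighbouring peaks as independent) overlapped a control H3K9me2 or H3K9me3 peak. For all Rhino peaks of Kdm3 GLKD ovaries this share was 52.8%, and for the new methylated peaks of autosomes it was 58.1%. The set of all Rhino peaks includes those shared with control, and all 67 of these on X overlapped a control mark. The difference from 52.8% is therefore in part set by the rule. The remaining 353 peaks of X (61.3%) overlapped no called control peak of either mark, which does not show that the marks were absent. H3K9me2 was overlapped by 200, H3K9me3 by 187 and both by 164. Control marks covered 21.1% of the length of X and Kdm3 GLKD marks 64.4%. Of the 72 new X peaks without a Kdm3 GLKD mark, 17 (23.6%) overlapped a control mark. Of the 86 control Rhino peaks of X, 84 did. The share depended on the lists used. It was 21.4% of 402 peaks without repeated windows, an alternative chosen after seeing the data, and 69.3% of 150 peaks when only histone peaks of at least 2-fold counted. By domain, no peak overlapped a control mark in 56 domains, every peak did in 64, and some did in 25.

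In Kdm3 GLKD ovaries, 412 peaks (71.5%) overlapped both marks, 153 overlapped H3K9me2 only and 11 overlapped H3K9me3 only. Among autosomal peaks these numbers were 542 (74.9%), 146 and 36. The rule used these lists, so the share on both marks is a description, and it was 18.7% when only histone peaks of at least 2-fold counted. Most peaks lay well inside broad methylation peaks: 533 (92.5%) were covered over their full length, and 12 were covered over less than 50% of it. The H3K9me2 peak at a Rhino peak had a median width of 20194 bp, up to 99383 bp. The histone enrichments were low, with a median of 1.79-fold and a maximum of 2.39-fold for H3K9me2 and a median of 1.77-fold and a maximum of 3.17-fold for H3K9me3. Just inside the rule, the smallest overlap with methylation was 74 bp, for a peak of 1.56-fold at chrX:16809629-16809899, and the nearest control Rhino peak was 189 bp away. Just outside it, a new peak of 1.62-fold lay 16 bp from the nearest methylation peak, and 37 of the 72 unmethylated peaks lay within 1 kb of one. A methylated peak of 1.48-fold was left out for 131 bp shared with a control Rhino peak.

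**Figure D2:**
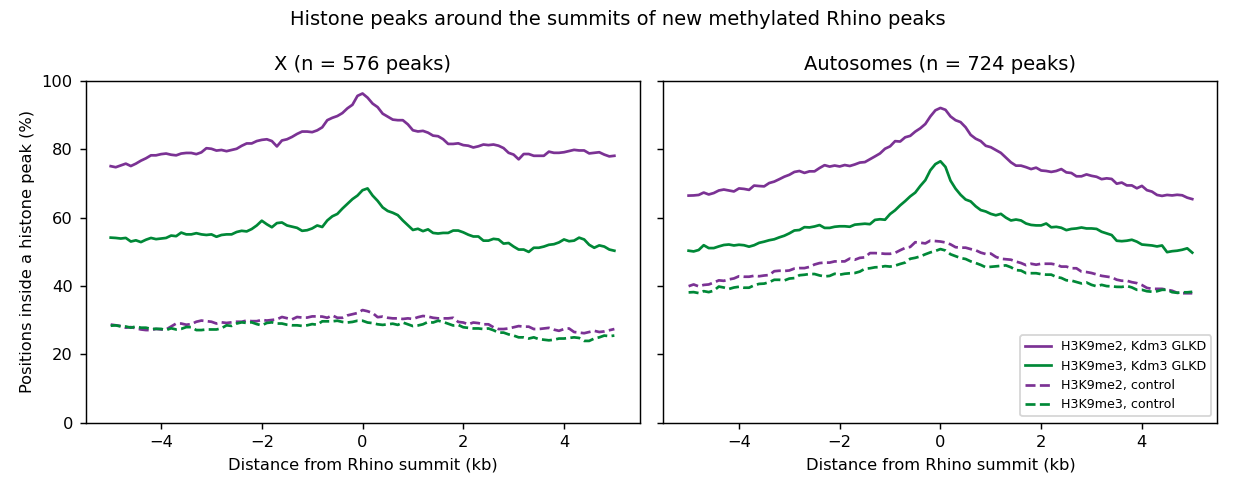
Histone marks around the summits of new methylated Rhino peaks. The x axis is the distance from the Rhino summit (kb), the y axis the percent of positions inside a histone peak, solid lines are Kdm3 GLKD and dashed lines control ovaries, in 1 panel for X and 1 for autosomes. On X, H3K9me2 of Kdm3 GLKD covered 96.4% of summits and H3K9me3 68.1%, while control H3K9me2 covered 33% and control H3K9me3 29.9%.

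Around the summits of X, coverage by Kdm3 GLKD marks was highest at or within 100 bp of the summit, which the rule favours, and was lower 5 kb away. At 5 kb before and after the summit, H3K9me2 covered 75.1% and 78.1% of positions. The control marks, which the rule did not use directly, were also lower 5 kb away: control H3K9me2 covered 33% at the summit and 28.7% and 27.4% at 5 kb. At autosomal summits the control marks covered 53% (H3K9me2) and 50.8% (H3K9me3). At 5 kb before and after autosomal summits, control H3K9me2 covered 40% and 37.9% and control H3K9me3 38.1% and 38.3%.

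Most new Rhino peaks of X that carried methylation had their summits in introns or between genes. Summits lay in introns for 232 peaks (40.3%), between genes for 207 (35.9%), in exons for 103 (17.9%) and within 500 bp of a gene start for 34 (5.90%). All windows of X fell in these classes for 45.1%, 22.3%, 22.8% and 9.81%. The 72 new peaks without methylation had 24 summits (33.3%) at gene starts. Autosomal peaks lay between genes for 48.6%, and the control Rhino peaks of X for 89.5%. Annotated transposable elements overlapped 52 peaks of X (9.03%) and 25% of autosomal peaks, counted over the full peak. Of all 78244 windows of X, 4973 overlapped an element. The windows were 300 bp wide and the peaks of X 200 to 6128 bp, with a median of 408 bp. A wider stretch meets an element more often, so the peak and window counts cannot be compared. The median distance to an element was 16842 bp on X and 2582 bp on autosomes.

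**Figure D3:**
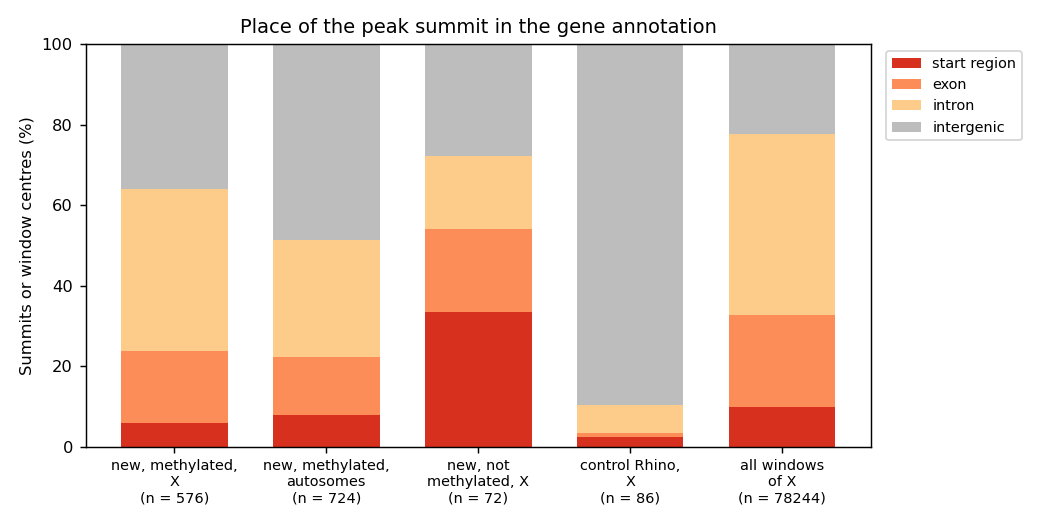
Position of Rhino summits relative to genes. The stacked bars give the percent of summits (or window centres) between genes, in introns, in exons and at gene starts (within 500 bp) for new methylated peaks of X and of autosomes, new unmethylated peaks of X, control Rhino peaks of X, and all 300-bp windows of X. Gene starts hold 5.90% of the new methylated summits of X and 33.3% of the new unmethylated ones.

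The sequence at the summits was richer in G and C than X as a whole. The GC content of the 300-bp summit windows had a median of 50.3% (quartiles 45.9 and 55.1%), against 42% (35.7 and 48.7%) for all windows of X and 50% for autosomal peaks. New unmethylated peaks of X had a median of 47.3%. In 100-bp steps the mean GC content was highest at the summit, at 52.2%. The words GAGG and GGGG, which share letters and can overlap, were counted on both strands. GAGG occurred 2.62 times per window and in 87.5% of windows, against 1.59 times and 71.3% for X. GGGG occurred 2.76 times and in 81.2%, against 1.63 times and 58.1%. New methylated peaks of autosomes had 2.82 GAGG and 2.40 GGGG per window, and control Rhino peaks of X had 3.35 and 1.94. At least 1 of these words was in 97.7% of summit windows and 85.2% of X windows. A run of CACACACA was in 5.03% of summit windows, in 8.29% of X windows and in 18.1% of the windows of new unmethylated peaks. GAGAGAGA was in 2.08%, against 2.29% for X. The part of the GC content in the word counts, and that of read recovery by GC content in the peak calls, was not tested.

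**Figure D4:**
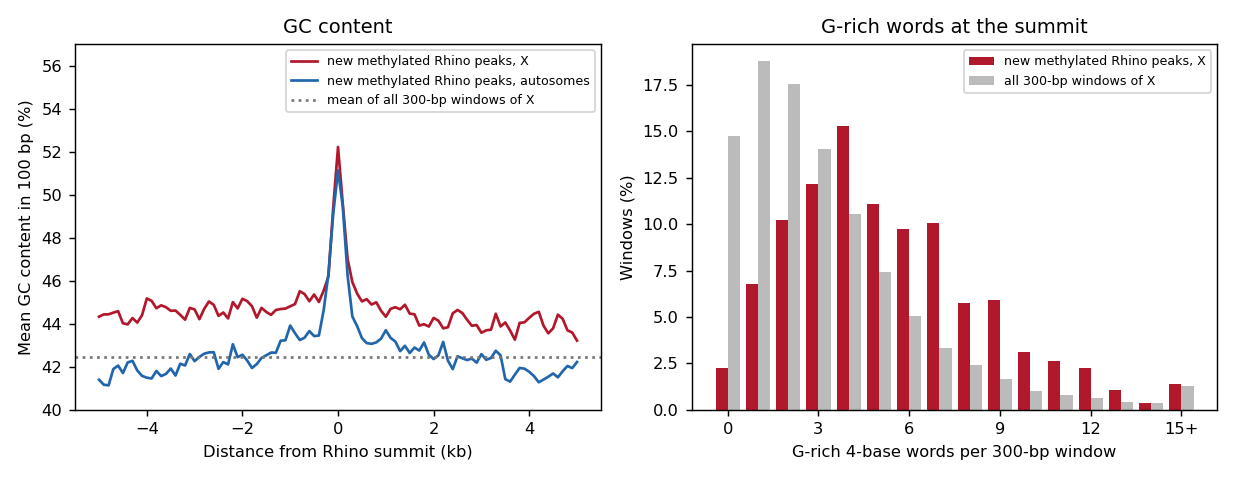
Sequence composition at the summits. One panel plots the mean GC content in 100-bp steps (%) against the distance from the summit (kb), for X and for autosomes, with the mean of all X windows as a dotted line, and the other plots the share of 300-bp windows (%) by their number of GAGG and GGGG words on both strands. The mean GC content of X peaks was highest at the summit, at 52.2%, and the median number of words was 5 in summit windows and 2 in X windows.

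The genes under the peaks were longer than the other genes of X, and transcription factor genes of development were among those with the most peaks. Of the 576 peaks, 362 (62.8%) overlapped at least 1 annotated gene and 214 overlapped none. They touched 106 genes, of 2704 annotated on X (3.92%): 88 protein-coding genes, 10 noncoding RNA genes and 8 pseudogenes. Of these, 45 carried 1 peak and 17 carried 5 or more. The median span was 7927 bp, against 1969 bp for the other genes of X, and 34 genes were over 20 kb. Of all 210 genes of X over 20 kb, 16.2% were touched. A gene was counted when a peak overlapped any part of its span, which favours long genes. The difference in length is therefore a description only.

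Of 30 listed transcription factor genes on X that pattern the embryo or specify cells, 10 (33.3%) carried a peak, beside 3.92% of all X genes. Of the 10, 8 are among 9 listed genes that the study names, which it chose on these samples, so this share is not independent evidence; of the other 21 listed genes, 2 carried a peak. Of all 30, 11 were over 20 kb, and 6 of the 11 carried a peak. Besides bi, disco, disco-r, Lim1 and unc-4, they were the homeobox genes oc, which patterns the head, and OdsH, the Runt-domain gene lz, which acts in the eye and in blood cells, and the zinc-finger genes peb and Cph. OdsH carried 9 peaks of up to 2.63-fold, oc carried 8 of up to 3.13-fold, and lz carried 7 of up to 2.19-fold. Cph carried 6 peaks of at most 1.80-fold over 1.89% of its long span, and peb 3 of up to 2.57-fold over 46.2%. Of 22 signalling and adhesion genes, 2 carried a peak, Appl and kirre, an immunoglobulin-family gene of myoblast fusion. Of 10 ion channel and transporter genes, 1 did, w, which encodes an ABC transporter for eye pigments. Of 19 germline and oogenesis genes, 1 did, Cph, and of 3 dosage compensation genes, none. Of the 14 X genes that the study names, 11 carried a peak. The study chose those genes on these samples, so their count is not independent evidence. The other 3 were mab-21, at 1643 bp from a peak, fz3, at 69550 bp, and fog, at 135520 bp.

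Peaks also lay on w, v and y, 3 pigmentation genes used as markers in many fly transgenes. Both v and y fall outside the named lists and were chosen after their values were seen. The study's flies carry transgenes. Reads from a transgene copy of such a gene cannot be told apart from reads of its place on X. The study attributes its added small RNAs at w to BX2, an autosomal array of transgenes that carry w. The part of BX2 in the Rhino peaks on w was not tested. On v, 3 peaks of 1.68- to 1.76-fold covered 64.2% of the gene, on w 2 peaks of up to 1.51-fold covered 30.9%, and on y 1 peak of 1.57-fold covered 8.61%. The w peaks also lie in kirre, whose span includes w. No other peak lay on kirre, so the counts of w and kirre in the lists above rest on these peaks.

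The 5 gene tables give levels of these genes. A base mean mixes Kdm3 GLKD and control libraries, so it shows how high a gene is and not in which group, and in whole tissue fewer cells of a type and less RNA per cell cannot be told apart. The tables held 105 of the 106 genes. In the ovary small RNA table, 94 of 105 (89.5%) had a base mean of at least 10, against 50.4% of all X genes in that table. The shares were 92.4% against 67.5% in ovary RNA, 77.1% against 66.8% in 3- to 5-hour embryo RNA, 32.4% against 17.6% in 0- to 2-hour embryo small RNA, and 30.5% against 14.5% in 3- to 5-hour embryo small RNA. These shares depended on the threshold. At a base mean of at least 100, the share of touched genes minus that of other X genes was 9.13 points in ovary RNA, -4.54 in embryo RNA, and 3.13 and 2.30 in small RNA of the younger and the older embryos, where it had been 25.9, 10.7, 15.4 and 16.6 at a base mean of 10. Since these genes are long and collect more reads for their length, levels were also divided by the span in kb and ranked among all X genes of the table. Ranked so, the median percentile of the touched genes was 85.2 in ovary small RNA, where 43 of 105 were in the top 10%. It was 44.4 in ovary RNA, 39.9 in embryo RNA, and 54.7 and 56.7 in small RNA of the younger and the older embryos. In base mean per kb, the median of touched genes in ovary small RNA was 18.1, against 3.51 for the other X genes. In ovary RNA it was 17.9, against 45.1. The direction in ovary RNA depended on this division by a span that includes introns. Undivided, the median base mean in ovary RNA was 228 for touched genes, against 165 for the other X genes. By length, the undivided median was 1189 against 2246 for genes over 20 kb, and 93.3 against 107 for shorter ones.

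**Figure D5:**
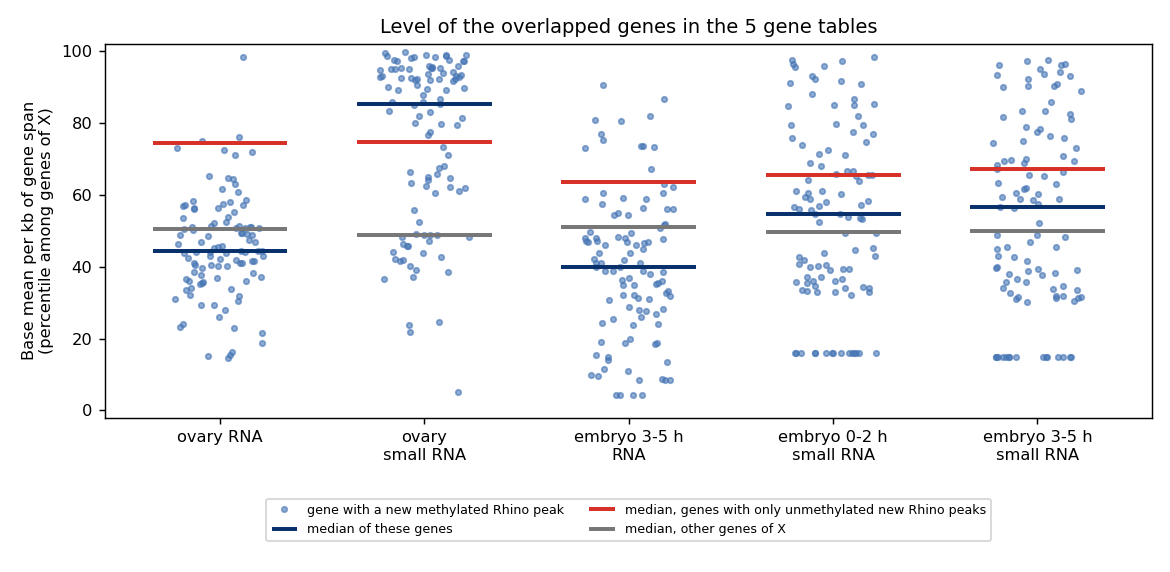
Levels of the genes touched by new methylated Rhino peaks. For each of the 5 gene tables, the y axis is the percentile of the authors' base mean per kb of gene span among all X genes of the table, points are touched genes, and lines are the medians of touched genes, of genes touched only by new unmethylated peaks and of the other genes of X. The median percentile of touched genes was 85.2 in ovary small RNA and 44.4 in ovary RNA.

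The ovary small RNA percentile differed among the touched genes with their length and with the marks of control sisters. It had a median of 91.8 for touched genes over 20 kb, against 53.5 for other X genes of that length, and of 79.7 for shorter ones, against 48.2. The 46 genes with a peak on a control mark had a median percentile of 89.3, and the 59 without had 71.1. Genes with no repeated peak had 77.5. The 40 genes touched only by new unmethylated Rhino peaks had 74.8 in ovary small RNA and 74.4 in ovary RNA. Across the 105 genes, the share of the gene in peaks was compared with the base mean per kb by Spearman correlation. It was 0.05 in ovary small RNA, 0.42 in 0- to 2-hour and 0.44 in 3- to 5-hour embryo small RNA. In ovary RNA it was -0.095 and in embryo RNA 0.109. Both measures are divided by the length of the gene, and the part of this shared divisor was not tested. Levels in embryo small RNA were low, with median base means of 4.84 at 0 to 2 hours and 4.53 at 3 to 5 hours. At each age 15 of the 105 genes were at 0, and the part of these low levels in the correlation was not tested. The correlation is across genes, which overlap, share libraries and differ in length, and is given as a description.

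Single genes differed by table. In ovary small RNA, Mur2B had a base mean of 41552 and stood at the 99th percentile, br, the zinc-finger gene of the ecdysone response, had 14036 (98.1), and Appl had 9786 (98.5). Both bi, with 1757 (89.2), and Lim1, with 887 (85.1), were lower, and oc had 132 (61.8). These levels count the whole gene span. Peaks covered 17.0% of it in Mur2B, 7.80% in br, 29.5% in Appl and 67.1% in bi. The study lists less small RNA of Kdm3 GLKD ovaries for its Mur2B region than for its bi region, which is longer. The part of the peaks in the level of each gene was not tested. Mur2B and br overlap on opposite strands and may share reads. In embryo small RNA per kb the order was another one. There disco stood at the 92.2 percentile at 0 to 2 hours and 92.1 at 3 to 5 hours, with base means of 33.4 and 25.2, disco-r at 84.7 and 81.6, and bi at 75.9 and 76.5. Mur2B stood at 65.6 and 63.4, and br at 39.4 and 35.9. In RNA of 3- to 5-hour embryos, peb had a base mean of 2602, oc 1587 and disco 737, while OdsH had 4.57 and arg, the arginase gene, 12.2.

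The noncoding gene lncRNA:CR32773 had a base mean of 15774 in ovary RNA, 5487 in ovary small RNA and 47.1 in embryo RNA. A second long noncoding gene that the study names, lncRNA:CR44357, carried 7 peaks over 1% of its span and had a base mean of 17415 in ovary RNA and 726 in ovary small RNA. The 7 Sdic copies, of which those other than Sdic1 were chosen after their values were seen, had base means between 248 and 285 in ovary small RNA, but at 0 to 2 hours Sdic1 had 22.7 and the others between 0 and 4.00. The copies are nearly identical, and how their reads were shared out is uncertain. The gene with the highest ovary small RNA level per kb among those touched, lncRNA:flam, chosen after its value was seen, is the main piRNA cluster of the follicle cells. It had a base mean of 205064 and carried 3 peaks, all repeated.

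The labelled tissues were checked against defining markers, by base mean. In ovary RNA, 5 germline markers lay between 1490 (bam) and 56260 (osk), and 5 follicle cell markers between 1690 (tj) and 63540 (Yp2). In 3- to 5-hour embryo RNA the follicle cell markers lay between 0.296 and 24.4, and 5 embryo patterning markers between 486 (eve) and 3954 (Kr). The part of follicle cells in the ovary levels of the touched genes was not tested.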

How the data were processed

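Per the study's methods, the authors mapped ChIP-seq reads with BWA 0.7.17.4 to Release 6 of the genome without Y, unplaced and mitochondrial sequences, removed duplicates with Picard 2.18.2.1 and called peaks against input with MACS2 2.1.1.20160309.6 at a q-value of 0.05, as narrow peaks for Rhino and broad peaks for the histone marks. The deposited fold ratio over input, the deposited -log10 q and the summit position were used. How libraries were combined into 1 list per antibody and genotype is not given in the sources used here. The base mean, a signal value, is the authors' mean of counts divided by DESeq2 size factors. Small RNAs were 23 to 29 nt and mapped uniquely. The deposited gene tables also hold the authors' fold changes, statistics and p-values, and the peak lists scores and -log10 p-values, which were not used. The files used hold no read counts per library, so no counting interval was computed for a single value.

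Peaks were intersected with Python 3.11.15, numpy 2.4.6 and pandas 2.3.3 (at least 1 bp), and the code was tested on simulated data. Genes came from the Ensembl BDGP6 annotation (54), while the embryo tables name release 6.36. The listed CG9650, dec-1, roX1, roX2 and nos were matched through RefSeq synonyms. Transposable elements were those annotated. Named genes were the 25 with the most peak sequence, the nearest to the 15 leading domains, those of the study, and the overlapped members of 5 lists, from which 6, 1 and 4 symbols not on X were dropped. The peaks, lists and measures were chosen with earlier results of these data known. Alternatives tried were stricter peak thresholds and overlaps, other joining distances, gene limits and base mean thresholds, and the removal of repeated windows.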

Additional observations from a re-analysis of the deposited data

How the results depend on the processing

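Under the alternatives, 39 recomputed values stayed close to those reported, 27 moved and 1 changed sign. With Rhino peaks of at least 2-fold only, 177 peaks, 212897 bp, 56 domains and 44 genes were found, with 23.2% on a control mark and 75.7% on both Kdm3 GLKD marks. With histone peaks of at least 2-fold only there were 150 peaks, 97599 bp, 60 domains and 29 genes, with 69.3% on a control mark and 18.7% on both marks. With histone peaks of -log10 q of at least 5, these shares were 44% and 51.1%. Among peaks on both marks, the share on a control mark was 48.5%, and that on both marks was 100% by construction. Without repeated windows, chosen after seeing the data, there were 95 domains, with shares of 21.4% and 62.4%.

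The difference between touched and other X genes in the share with a base mean of at least 10 depended on the threshold. For ovary RNA it was 25.9 points and became 16.5 at a base mean of 1, 9.13 at 100 and 33.2 against all genes of the table. For ovary small RNA it was 40.7 points and became 24.5 at 1 and 49.8 against all genes. For 3- to 5-hour embryo RNA it was 10.7 points and became -4.54 at 100. For 0- to 2-hour embryo small RNA it was 15.4 points and became 26.9 at 1 and 3.13 at 100. For 3- to 5-hour embryo small RNA it was 16.6 points and became 2.30 at 100. The cause of these shifts was not tested. No paired analysis was possible because each peak list and base mean pools its libraries, and for the same reason no library could be left out.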
